A study of Sus scrofa with 36 samples.

Results

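Interferon-stimulated genes were described in the liver of 36 castrated male growing pigs, each measured on a 1-colour Agilent array of 60-base probes. The 9 genes were IFIH1, IRF7, ISG15, ISG12(A), IFIT1, MX1, MX2, OAS1 and RSAD2. The genes were put forward with earlier results of these arrays known, and their probes were chosen by detection on the arrays. A probe was taken when its gene name or accession in the scanner table led to a listed gene and its spot was well above background on at least 6 of the 36 arrays. Some probes that the array names by a longer sequence identifier were left without a gene name and were not taken. This gave 26 probes among the 60305 probes of the array, of which 44796 passed the same filter, and 9 of the 11989 gene names among the latter. Of the 26, 25 were above background on all 36 arrays and the dimmest IRF7 probe on 32, so none lay near the limit of 6. RSAD2 is listed on the array under its older name IRG6.

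The pigs were Large White (LW), a breed selected for growth, Creole (CR), a local Caribbean breed, and their cross, called F1, with 12 animals each. In every breed 6 animals were killed at thermoneutrality (TN, 24 °C) and 6 after heat stress (HS), for which the sample labels give 30 °C and the growth protocol 32 °C over 5 days. TN animals were killed before and HS animals after the rise in temperature, so the effect of heat and that of slaughter day, or of a few days of age, cannot be told apart. By the paper, the pigs of a breed came from a few litters, each spread over pens killed at both temperatures. Litter and pen are not in the labels, so neither could be fitted. The animals of a breed were therefore not fully independent, and p-values for breed may be too small for that reason. Since TN and HS animals shared litters but not pens, p-values for heat may be too small or too large. All levels given here are log2 signals, that is, log2 of the quantile-normalized median spot signal, and a difference of 1 is a doubling.

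Type I interferons are secreted by infected or alarmed cells and bind a receptor that activates transcription factors in the cell. These switch on a common set of genes that block viral entry, translation and assembly, and many of the set are also expressed at a low level without infection. In the liver, hepatocytes, resident macrophages and lymphocytes can all express them. IFIH1 (MDA5) senses viral double-stranded RNA, and IRF7 is a transcription factor that amplifies interferon production. The other 7 are effectors. ISG15 is a ubiquitin-like protein, ISG12(A) encodes a small protein of the IFI27 family, IFIT1 binds foreign RNA, MX1 and MX2 are dynamin-like antiviral GTPases, OAS1 makes the messenger that activates RNase L, and RSAD2 encodes viperin.

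The genes lie on 7 chromosomes of assembly Sscrofa11.1. IRF7 is on chromosome 2 (372235 to 375572), RSAD2 on chromosome 3 (128880853 to 128897809), ISG15 on chromosome 6 (63363201 to 63364211) and ISG12(A) on chromosome 7 (115356619 to 115361537). MX2 (204798633 to 204821612) and MX1 (204843049 to 204868927) are neighbours on chromosome 13, with 21436 bases between them. OAS1 (38851083 to 38867427) and IFIT1 (101237403 to 101249486) are on chromosome 14, and IFIH1 on chromosome 15 (68930998 to 68985145).

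The probes below include the brightest probes of ISG15, OAS1, ISG12(A) and MX2. For MX1 and IFIT1 they are dimmer probes, and none is shown for IFIH1, IRF7 and RSAD2. The ISG15 pair is shown because its probes read the same stretch of the transcript. In capitals are the 55 bases they share in position, of which 54 match, with the single substitution C49T counted from the 5′ end of the first probe.
ISG15 probe O11065: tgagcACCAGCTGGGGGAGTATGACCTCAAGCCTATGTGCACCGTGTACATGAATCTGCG
ISG15 probe A_72_P441219: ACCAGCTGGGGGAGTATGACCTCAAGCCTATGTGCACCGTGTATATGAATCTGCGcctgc
The pair is therefore not 2 independent readings of ISG15. The MX1, OAS1 and IFIT1 probes that follow share no 20 bases with another probe of their gene, so each reads its transcript at a place of its own.
MX1 probe A_72_P444250: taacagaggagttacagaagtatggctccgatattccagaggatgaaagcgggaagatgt
MX1 probe A_72_P487406: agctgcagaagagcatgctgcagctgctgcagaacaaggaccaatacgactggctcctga
OAS1 probe A_72_P223657: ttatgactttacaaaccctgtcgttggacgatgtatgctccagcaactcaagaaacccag
OAS1 probe A_72_P719688: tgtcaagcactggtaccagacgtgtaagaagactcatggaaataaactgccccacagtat
IFIT1 probe A_72_P427319: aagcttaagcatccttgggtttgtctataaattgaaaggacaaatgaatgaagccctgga
IFIT1 probe A_72_P489826: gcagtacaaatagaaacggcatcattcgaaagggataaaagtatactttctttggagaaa
ISG12(A) has 1 probe and MX2 has 3, of which the first 2 below differed between breeds and the last did not pass the test. Only their first 30 bases are given.
ISG12(A) probe A_72_P031471: gcagtgaggcaccagtcctgggatgacaag
MX2 probe A_72_P177406: agttggcaaaatttgtactaggttaaaaat
MX2 probe A_72_P027231: cctgagtcaacacacttagagggaaaagga
MX2 probe A_72_P444240: tacagtattcttaacgactgctaccattcg
Of the 7 MX1 probes, 3 overlap one another. No probe of the 9 genes shared 20 bases with a probe of a differently named gene. Probes left without a gene name did share 20 bases with probes of IRF7, ISG15, MX1 and RSAD2, and were not taken.

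For each gene the probe with the highest mean signal is described, and the other probes are given by their range or where they differed from it. At these brightest probes the animals varied more than at most of the array. The residual standard deviation of the brightest MX1 probe, after breed and temperature were fitted, was 1.13, and 0.337% of the 44796 probes had a higher one. It was 0.79 for OAS1, 0.72 for ISG12(A) and 0.71 for ISG15, with 0.855%, 1.09% and 1.18% of probes above them. MX2 and IFIH1 varied least, at 0.32 and 0.28, where 13% and 19.5% of probes were above them. The median over all 44796 probes was 0.189, and the dimmest probes of IRF7 and MX2 lay below it, at 0.157 and 0.182.

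**Figure D1:**
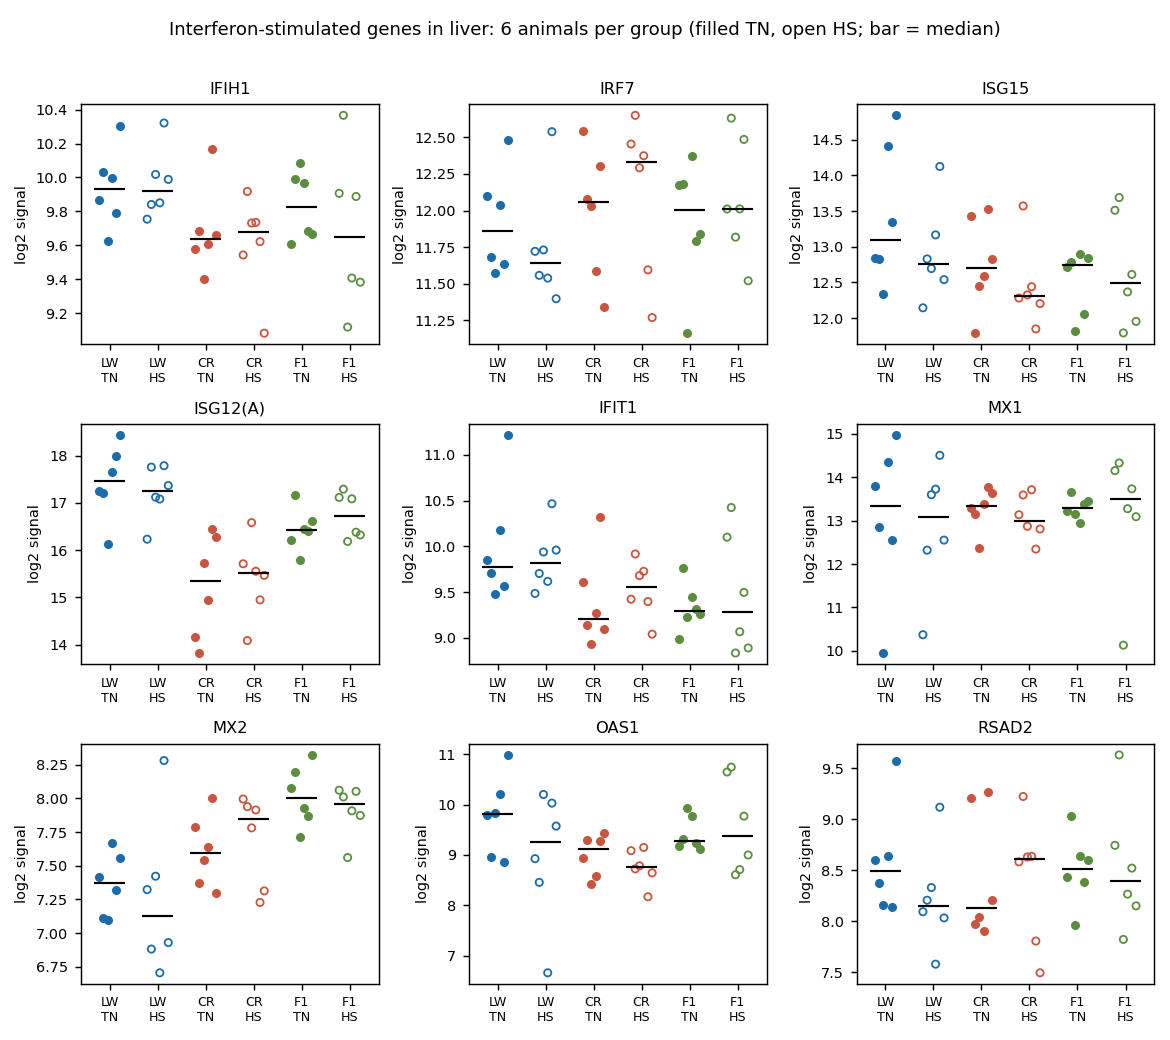
Log2 signal of the brightest probe of each of the 9 genes (y axis, scaled per gene) in the 6 groups of 6 pigs (x axis), with 1 point per animal, filled for TN and open for HS, and a bar at the group median. ISG12(A) is highest in LW and lowest in CR, MX2 is lowest in LW, and 3 animals lie near 10 at MX1.

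Heat came first among the questions of the study. No probe of the 9 genes passed the test for HS against TN (0 of 26, limma adjusted p under 0.05), where 0.857% of all probes did, 0.435% higher and 0.422% lower. None of the 26 was below an unadjusted p of 0.05 either, against 5860 of the 44796 probes. The lowest adjusted p among them was 0.465, at the MX2 probe A_72_P027231. The 17 probes that were not the brightest of their gene gave HS minus TN differences from -0.27 at ISG15 probe O11065 to 0.05 at IRF7 probe A_72_P077861. The test could not separate the groups at these genes, but the interval of each difference says how large a change may have been missed.

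IFIH1, the sensor, lay between 9.40 and 10.31 in TN (median 9.74, n = 18) and between 9.08 and 10.37 in HS (median 9.80, n = 18). The HS minus TN difference was -0.07 (95% interval -0.25 to 0.11). The ranges of the groups overlapped almost wholly. IRF7 lay between 11.16 and 12.54 in TN (median 12.03) and between 11.27 and 12.65 in HS (median 11.91). Its difference was 0.04 (95% interval -0.24 to 0.31).

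Among the effectors, ISG15 lay between 11.79 and 14.84 in TN (median 12.82) and between 11.79 and 14.13 in HS (median 12.49), and 5 of 18 HS animals were above the TN mean of their breed. The difference was -0.24 (95% interval -0.69 to 0.22). OAS1 had a median of 9.29 in TN and 8.96 in HS, with ranges of 8.41 to 10.98 and 6.66 to 10.74. Its difference was -0.29 (95% interval -0.80 to 0.21). The lowest HS animal, LW HS replicate 4 at 6.66, weighed on this value, which was -0.13 without that array. MX1 gave -0.20 with the widest interval (-0.93 to 0.52), since its animals were the most spread. For ISG12(A) the difference was 0.08 (-0.39 to 0.54), for IFIT1 0.04 (-0.26 to 0.35), for MX2 -0.04 (-0.25 to 0.17) and for RSAD2 -0.13 (-0.47 to 0.22). By these intervals, a rise or a fall of 1 in log2 signal was outside the range for all 9 genes. A fall of 0.5 was inside it for ISG15, MX1 and OAS1, and a rise of 0.5 for ISG12(A) and MX1.

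The 9 differences had a median of -0.07, with 3 above 0 and 6 below, beside a median near 0 over all probes. Within breeds, none of the 26 probes was called in LW, CR or F1, where 0, 0 and 0.00893% of all probes were (in F1 0.00446% higher and 0.00446% lower), and none of the 26 was below an unadjusted p of 0.05. The largest of the 27 differences within a breed was that of OAS1 in LW, at -0.80 (95% interval -1.67 to 0.07, adjusted p = 0.953), and the animal at 6.66 is in that breed. In CR and F1 it was -0.24 and 0.15. The interaction of breed with temperature gave no call among the 26 probes or among all probes.

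**Figure D2:**
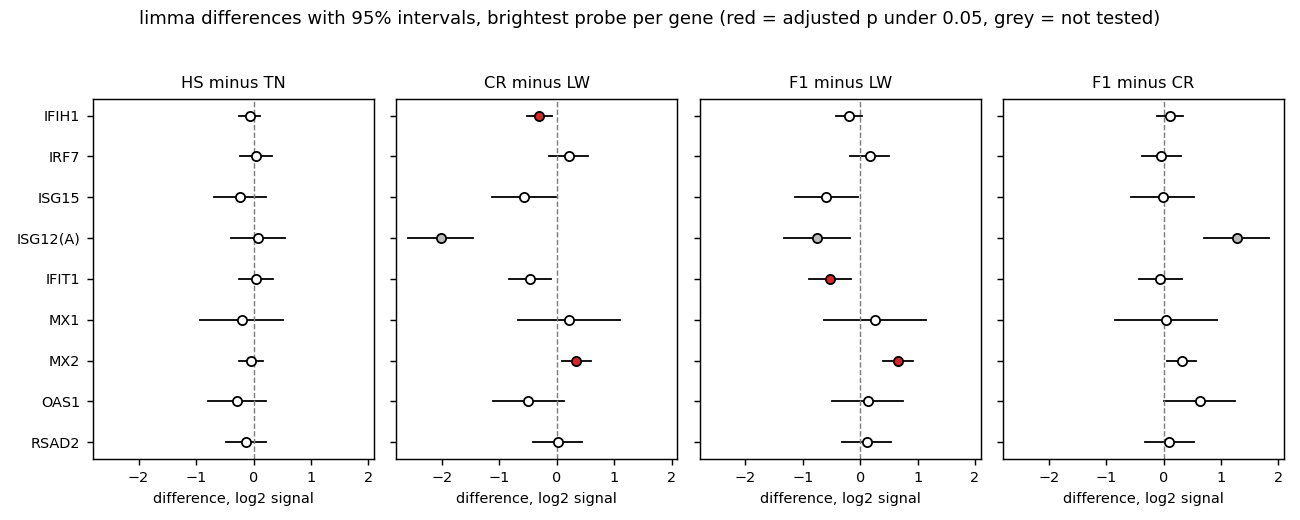
Differences in log2 signal (x axis) with 95% intervals for the brightest probe of each gene (y axis), for HS minus TN, CR minus LW, F1 minus LW and F1 minus CR. Red points passed limma's test at an adjusted p under 0.05. The grey points of ISG12(A) are given without a test, and their intervals do not allow for the choice of that gene. All 9 intervals include 0 for HS minus TN, and MX2 lies to the right of 0 in both comparisons with LW.

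The breeds were compared next, with temperature in the model. Of all probes 26.5% differed between CR and LW, so breed differences were common on this array. Of the 26 probes, 5 did (19.2%), 1 higher and 4 lower in CR, beside 13.6% and 12.9% of all probes in these directions. Without ISG12(A), which was put forward for its breed difference, 4 of 25 did (16%). For F1 against LW the background was 18.3%, and 5 of the 26 were called, 2 higher and 3 lower, beside 9.13% and 9.22% of all probes in these directions. These shares were near the background and are no result about the genes as a group. CR and F1 were both set against the same 12 LW animals, so their differences from LW are not independent of each other.

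ISG12(A) was among the genes put forward for its breed difference, so its levels are a description without a test. Its log2 signal lay between 16.14 and 18.43 in the 12 LW animals (median 17.31), between 13.83 and 16.58 in CR (median 15.51) and between 15.79 and 17.29 in F1 (median 16.42). The median was highest in LW, lowest in CR and between them in F1. All 12 CR and all 12 F1 animals were below the LW mean, and 9 of 12 CR animals were below the lowest LW animal. The CR minus LW difference was -2.02 and F1 was above CR by 1.27. Since the gene was chosen for its breed difference, these sizes may be overstated. F1 lay 0.26 from the mean of the parental breeds (-0.23 to 0.75).

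At both temperatures the order was kept. The ISG12(A) medians at TN were 17.46 for LW, 15.34 for CR and 16.42 for F1, and at HS they were 17.24, 15.51 and 16.73. Within CR the animals were most spread, with standard deviations of 1.09 at TN and 0.83 at HS against 0.45 and 0.48 in F1 (n = 6 each). On each of the 5 slides taken alone CR was lower than LW, by -1.52 to -2.34. The slides hold the same values for which the gene was chosen, so this is no further support.

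MX2 went the other way. The brightest MX2 probe lay between 6.71 and 8.28 in LW (median 7.32), between 7.23 and 8.0 in CR (median 7.71) and between 7.56 and 8.32 in F1 (median 7.97). All 12 F1 animals were above the LW mean, although only 1 was above the highest LW animal (LW HS replicate 5). F1 was higher than LW by 0.65 (standard error 0.126, limma adjusted p = 0.00102). CR was higher than LW by 0.34 (adjusted p = 0.0422). F1 and CR differed by 0.31 (95% interval 0.06 to 0.57), which did not pass the test (adjusted p = 0.253).

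A separate MX2 probe (A_72_P027231) gave 0.85 for F1 minus LW (limma adjusted p = 0.000231) and 0.35 for CR minus LW (adjusted p = 0.0591). The dimmest MX2 probe gave 0.08 and -0.03 and did not pass. By the test, MX2 was also the only one of the 9 genes at which F1 differed from the mean of LW and CR. The difference was 0.48 at the brightest probe (adjusted p = 0.0183) and 0.67 at A_72_P027231 (adjusted p = 0.00261). These are 2 of 26 probes, both higher in F1, beside 1.13% of all probes, 0.464% higher and 0.661% lower. The F1 minus LW difference was positive on each of the 5 slides, at 0.46 to 0.80, and its call held without any single array or slide. The CR minus LW call at the brightest probe rested on many animals, and 14 of the 36 left-out arrays ended it (adjusted p up to 0.0882). So did leaving out any of 3 of the 5 slides, and 2 of 10 other settings. Over all settings its limma adjusted p reached 0.148. The call against the parental mean was lost without slide 2, 3 or 5.

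IFIT1 was lower in both CR and F1 than in LW. Its brightest probe lay between 9.48 and 11.22 in LW (median 9.78), between 8.93 and 10.32 in CR (median 9.41) and between 8.83 and 10.42 in F1 (median 9.29). In CR 11 of 12 animals and in F1 10 of 12 were below the LW mean, and 7 CR animals were below the lowest LW animal. All 3 IFIT1 probes fell in F1 against LW, by 0.53, 0.59 and 0.61 (limma adjusted p = 0.0404, 0.0228 and 0.009, differences of -0.53, -0.59 and -0.61). In CR against LW probe A_72_P489826 gave -0.79 (adjusted p = 0.00049), A_72_P427319 gave -0.51 (adjusted p = 0.0339) and the brightest probe -0.47, just short of the threshold (adjusted p = 0.0556). The sign was not the same on every slide. CR minus LW ran from -1.41 to 0.14 and F1 minus LW from -1.43 to 0.32. At the brightest probe the F1 minus LW call was lost without any of 11 arrays (adjusted p up to 0.0803). It was also lost without any of 3 of the 5 slides and in 2 of 10 other settings. Over all settings its limma adjusted p reached 0.246. The CR minus LW difference passed without any of 7 arrays (adjusted p down to 0.0209).

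IFIH1 was lower in CR than in LW by a small amount. It lay between 9.63 and 10.32 in LW (median 9.93), between 9.08 and 10.17 in CR (median 9.64) and between 9.12 and 10.37 in F1 (median 9.79). The CR minus LW difference was -0.30 (95% interval -0.53 to -0.08, limma adjusted p = 0.0381), and 11 of 12 CR animals were below the LW mean. The other IFIH1 probes gave -0.24 (adjusted p = 0.0535) and -0.10 (adjusted p = 0.486), so 1 of 3 probes carried the call. The call was lost without any of 11 arrays (adjusted p up to 0.0756). It was also lost without any of 3 of the 5 slides and in 2 of 10 other settings. Over all settings the limma adjusted p reached 0.242. On single slides the difference ran from -0.69 to 0.04. F1 minus LW was -0.19 (adjusted p = 0.231).

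The remaining 5 genes did not differ between breeds by the test. At their brightest probes ISG15 was the nearest to it, with medians of 12.84 for LW, 12.45 for CR and 12.66 for F1, and differences from LW of -0.57 in CR (limma adjusted p = 0.121) and -0.59 in F1 (adjusted p = 0.13). The overlapping ISG15 probe gave -0.58 and -0.59. OAS1 had medians of 9.68, 8.86 and 9.28, and its CR minus LW difference of -0.50 (95% interval -1.11 to 0.12) was -0.05 at the other OAS1 probe. Without LW HS replicate 4, the lowest OAS1 animal, it was -0.74 and passed the test (adjusted p = 0.0289). IRF7 gave 0.21 in CR and 0.17 in F1, RSAD2 0.01 and 0.11, and MX1 0.21 and 0.25, and none of these passed the test. The other RSAD2 probe, A_72_P443124, gave -0.33 in CR (95% interval -0.64 to -0.02, adjusted p = 0.104) and -0.25 in F1 (adjusted p = 0.261), so the RSAD2 probes differed in sign. The IRF7 probe A_72_P077861 gave 0.02 and -0.02 and O9025 gave -0.03 and 0.11. At the other 6 MX1 probes the differences lay between 0.05 and 0.23 in CR and between 0.14 and 0.24 in F1. The MX1 intervals were wide, at -0.68 to 1.1 for CR minus LW. Against CR, no probe of the 9 genes other than ISG12(A) was called in F1 (0 of 25, beside 1.5% of all probes called, 0.761% higher and 0.743% lower). At an unadjusted p under 0.05 were 4 of these 25, beside 5598 of the 44796 probes.

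Markers of immune cells moved with breed in the same livers, and their part in these results was not tested. Of 6 macrophage genes measured 4 were lower in CR than in LW, with CD163 at -1.16 and VSIG4 at -0.83, and 4 were lower in F1. Of 10 lymphocyte genes 6 were lower in CR and 5 in F1, and all 3 neutrophil genes measured were lower in both. Among all probes 12.9% were lower in CR and 9.22% lower in F1 than in LW. The log2 of the summed macrophage signal lay between 14.86 and 15.30 in LW, between 14.20 and 14.94 in CR and between 14.50 and 15.03 in F1. For lymphocyte genes these ranges were 10.35 to 10.97, 10.09 to 10.69 and 9.89 to 10.83, and for neutrophil genes 8.02 to 10.08, 7.54 to 8.83 and 7.36 to 8.84. Hepatocyte genes, 7 in all, summed to between 20.69 and 20.87 in every animal. This sum comes mostly from probes near the top of the array, such as ALB, whose highest level was 18.85 in each breed. Quantile normalization gives such probes nearly the same values on every array, so the narrow range says little about the share of hepatocytes. In bulk tissue, fewer cells of a type and less RNA per cell cannot be told apart. None of the marker genes was called for HS against TN.

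Animals also stood apart from their breed over the whole array. On the first principal component (18.6% of the variance), 10 LW animals were at -24.8 or below, whereas LW TN replicate 1 was at -4.83 and replicate 6 at -3.04. F1 HS replicates 1 and 2 and F1 TN replicate 3 lay between -17.0 and -21.3, towards LW. The other 9 F1 animals lay between -1.31 and 36.9 and the 12 CR animals between 2.35 and 35.4. On this component most of F1 therefore lay over the range of CR and not midway between the parental breeds. All 5 are analysed here as the breed they are labelled, and if a label were wrong the breed differences would shift. LW TN replicate 6 was also the highest of the 36 animals at 5 of the 9 genes, as described below. Without these 5 animals, a setting chosen after the data were seen, 6 of the 26 probes instead of 5 were called for CR against LW, 6 instead of 5 for F1 against LW, 1 as before for F1 against CR and 4 instead of 2 for F1 against the parental mean. ISG12(A), described without a test, is in both counts for CR against LW and is the call for F1 against CR. At the brightest probes MX2 was then higher than in LW by 0.37 in CR (limma adjusted p = 0.0391) and by 0.69 in F1 (adjusted p = 0.000617). IFIT1 gave -0.58 in F1 against LW (adjusted p = 0.00527), and IFIH1 -0.29 in CR against LW (adjusted p = 0.0331). A pair of differences passed the test only without these animals, those of IFIH1 in F1 against LW, at -0.30 (adjusted p = 0.0378), and of IFIT1 in F1 against the parental mean, at -0.41 (adjusted p = 0.038).

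MX1 was split among animals of the same breed and temperature. LW TN replicate 3 had a log2 signal of 9.95, F1 HS replicate 3 of 10.13 and LW HS replicate 1 of 10.37 at the brightest MX1 probe. The other 33 animals lay between 12.32 and 14.97, so no animal fell between 10.37 and 12.32. The same 3 animals were the lowest at all 7 MX1 probes, with a gap to the next animal of between 1.09 and 2.06. No CR animal was among them.

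**Figure D3:**
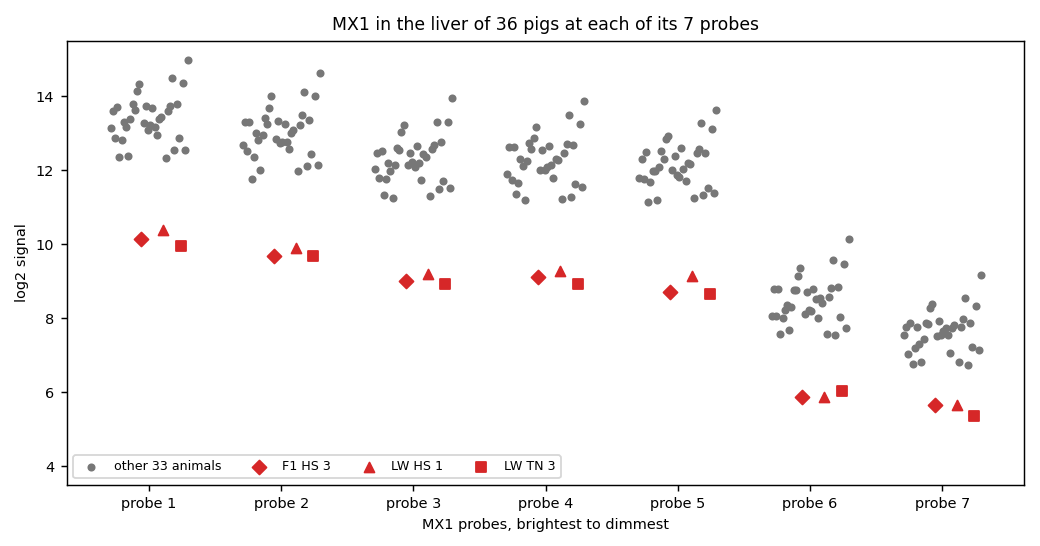
Log2 signal (y axis) of 36 pigs at each of the 7 MX1 probes, ordered from the brightest to the dimmest (x axis), with 1 point per animal. The 3 animals drawn in red, LW TN 3, LW HS 1 and F1 HS 3, lie below the other 33 at every probe.

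The 3 animals were not low in the same way at the other genes. At OAS1, LW TN replicate 3 was at 9.83 and ranked 29th from the lowest of 36, and at ISG12(A) the 3 lay at 16.14, 16.23 and 16.18, ranks 11 to 14. F1 HS replicate 3 was the lowest of all at IFIT1 (8.83) and the next to lowest at ISG15 and IFIH1. At MX2, the neighbouring gene, the 3 ranked 4th, 10th and 16th. The probes MX1 A_72_P444250 and A_72_P487406, printed above, share no 20 bases with the other MX1 probes and showed the same gap. OAS1 had a low animal of its own, LW HS replicate 4, at 6.66 against 8.17 or more in all others, and at its other probe the lowest value was 6.06, in the same group.

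Across animals the genes moved together. After the mean of each of the 6 groups was removed, the brightest probes of the 8 genes other than MX1 made 28 pairs, and 23 passed a permutation test within groups (100000 resamples, two-sided, Benjamini-Hochberg adjusted over 36 pairs). Because MX1 fell into 2 clusters of animals, its 8 pairs were taken over the 33 animals above the gap, and 7 passed after adjustment over these 8. A gap seen in the data set that split. The permutation treats the animals of a group as independent. Littermates are not, so the permutation p-values given here and below may be too small. Pearson's r was positive in all 36 pairs. The closest pair was IFIT1 with IFIH1, at r = 0.87 and Spearman's rho = 0.86 (n = 36, permutation p = 1e-05, adjusted p = 4.5e-05, the smallest the resampling can give). IFIT1 with RSAD2 gave r = 0.87 (rho = 0.84), IRF7 with RSAD2 r = 0.84 (rho = 0.84) and ISG15 with IFIT1 r = 0.81 (rho = 0.75).

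ISG12(A), the gene that differed most between breeds, moved least with the others. Its r ran from 0.14 with IRF7 (permutation p = 0.477) to 0.44 with ISG15 (permutation p = 0.0138, adjusted p = 0.0191), and with MX1 it was 0.17 over 33 animals (permutation p = 0.334). Its r with the mean of the other 8 genes was 0.39, against 0.90 for IFIT1 and 0.89 for RSAD2. Leaving out the 2 animals farthest from the median of the first gene of a pair left r between 0.12 and 0.85, positive in all 36 pairs. All arrays share labelling and slides, and after slide means were removed too 33 of the 36 pairs passed. The r of ISG12(A) then ran from 0.27 with MX1 to 0.55 with RSAD2, and with IRF7 it was 0.42. Its low r with IRF7 therefore depended on the slides. By Spearman's rho, without slide means removed, 31 pairs passed. These counts, and the range of r without 2 animals, start from all 36 animals, with the 3 low at MX1 included. Counted in that way, 30 of the 36 pairs passed by Pearson's r with group means removed.

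**Figure D4:**
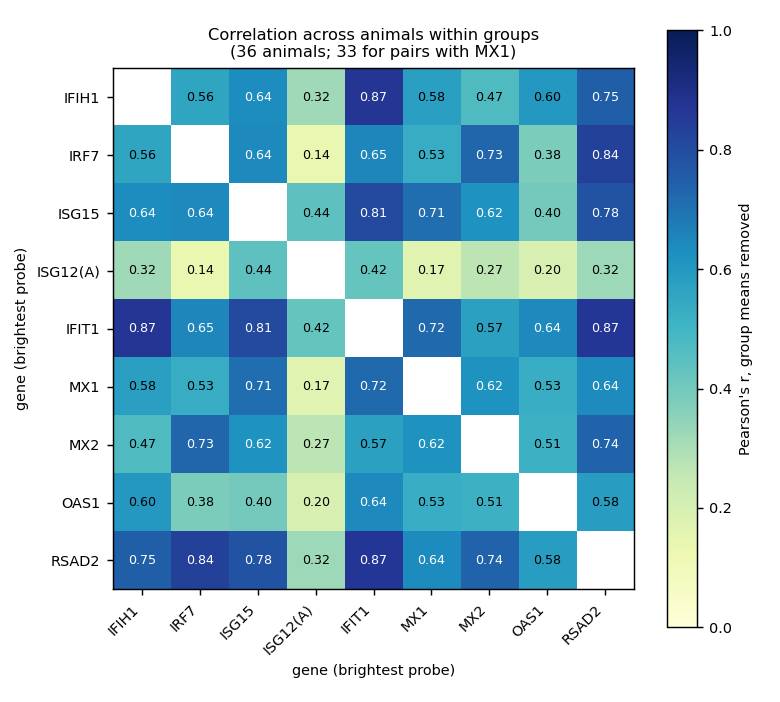
Pearson's r between the brightest probes of the 9 genes (both axes) over 36 animals with group means removed, or over 33 animals for pairs with MX1, from 0 (pale) to 1 (dark). The row of ISG12(A) is the palest, at 0.14 to 0.44, and IFIT1 with IFIH1 and with RSAD2 are the darkest at 0.87.

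The pattern can be seen animal by animal. In 5 animals all 9 genes were above the mean of their group, namely LW TN replicates 4 and 6, LW HS replicate 5, CR TN replicate 5 and F1 HS replicate 2, and in F1 HS replicates 3 and 6 none was. LW TN replicate 6 had the highest level of all 36 animals at MX1 (14.97), ISG15 (14.84), OAS1 (10.98), IFIT1 (11.22) and ISG12(A) (18.43). By their labels, the 5 animals with all 9 genes above the group mean came from all 3 breeds and both temperatures. LW TN replicate 6 and F1 HS replicate 2, the only F1 animal among them, stood apart from their breed on the first principal component. Of 36 correlations between a gene and the summed signal of the macrophage, lymphocyte, neutrophil or hepatocyte markers, group means removed, 1 passed, that of OAS1 with the hepatocyte genes (r = -0.56, permutation adjusted p = 0.00396), and its Spearman's rho did not (adjusted p = 0.0644). The sums add linear signals and so follow their brightest genes most, CD14 among the macrophage and GZMB among the lymphocyte genes. Correlations with single marker genes were not tested.

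The genes outside the 9 whose brightest probe was most like the mean of the 9, by Pearson's r over 36 animals with group means removed and among 11962 genes, were ZNFX1 (0.93), DHX58 (0.93), PARP12 (0.92), IFIT3 (0.87), LOC733579 (0.87), RTP4 (0.86), HERC5 (0.85), IFI44L (0.81) and B2M (0.75). Those most like ISG12(A), with nothing removed, were TRIM46 (0.96), NPPA (0.79), XKR9 (0.74), SIRT3 (0.73) and CINP (0.71). Part of this likeness is the breed difference that they share, since with group means removed the r was 0.91 for TRIM46, 0.66 for NPPA and 0.48 to 0.31 for the others. The TRIM46 median was 10.39 for LW, 8.71 for CR and 9.77 for F1, the order seen at ISG12(A).

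The wider interferon pathway was described from lists of sensors, ligands and receptors, signalling proteins, effectors and inhibitors, with 63 genes measured. None was called for HS against TN, and the median difference of the 63 was -0.02. For CR against LW 23 were called, 8 higher and 15 lower, beside 26.5% of all probes, 13.6% higher and 12.9% lower. For F1 against LW 16 were called, 5 higher and 11 lower, beside 18.3% of all probes, 9.13% higher and 9.22% lower. The 63 are counted at the brightest probe of each gene and the background over all kept probes, so these shares are not strictly alike. The median differences were -0.11 and -0.10. For F1 against CR 2 were called, TLR7, a sensor of single-stranded RNA, at 0.47 (limma adjusted p = 0.0276) and OASL, a relative of OAS1, at 0.31 (adjusted p = 0.04998). Of all probes 1.5% were called there.

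By role, 3 of 11 sensors were lower in CR than in LW and none higher, where 12.9% of all probes were lower and 13.6% higher. Of 7 ligands and receptors 2 were higher and 2 lower, and of 11 signalling proteins 3 were higher and 1 lower. Of 32 effectors 3 were higher and 8 lower, and of 2 inhibitors 1 was lower, USP18, which restrains signalling at the receptor, at -0.50 (limma adjusted p = 0.0443).

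The CR minus LW difference with the smallest p was that of OASL. Its log2 signal lay between 6.99 and 7.91 in LW (median 7.59), between 6.68 and 7.17 in CR (median 6.97) and between 6.90 and 7.70 in F1 (median 7.29), and CR was lower by -0.57 (adjusted p = 7.86e-06). XAF1, a pro-apoptotic gene, lay between 10.97 and 12.65 in LW (median 12.04) and between 9.37 and 12.42 in CR (median 10.27). Its CR minus LW difference of -1.61 (adjusted p = 1.21e-05) was the largest of the 63. IFIT2 and IFIT3, relatives of IFIT1, gave -0.98 (adjusted p = 1.04e-05) and -0.75 (adjusted p = 0.00109). The highest CR animal at IFIT2 was at 9.27 and the lowest LW animal at 9.45, so these breeds did not overlap there.

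TRIM26 and ZC3HAV1 were higher in CR, TRIM26 at 0.48 and ZC3HAV1, which targets viral RNA for decay, at 0.46 (limma adjusted p = 0.000441 and 0.00104). In F1 against LW the smallest p was that of TRIM26 at 0.49 (adjusted p = 0.00128), followed by IFI35 at -0.28, the transcription factor IRF5 at -0.33, the receptor chain IFNAR1 at -0.23, IFIT3 at -0.63 and IFIT5 at -0.44.

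**Figure D5:**
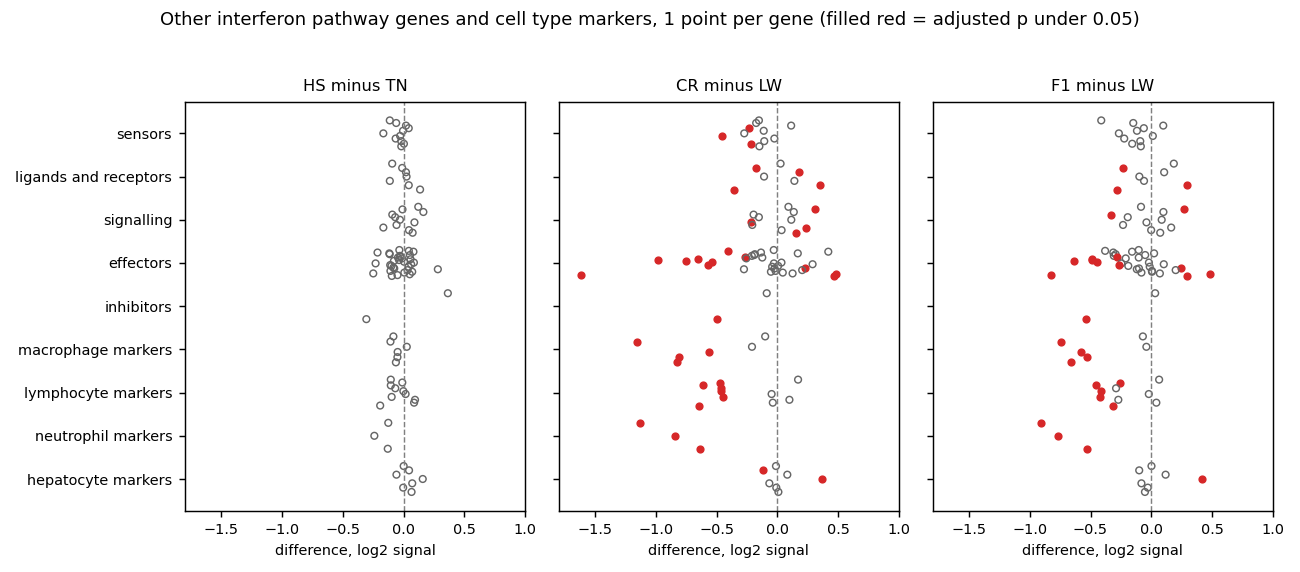
Differences in log2 signal (x axis) for HS minus TN, CR minus LW and F1 minus LW of the other interferon pathway genes and of cell type markers, 1 point per gene, by list (y axis). Filled red points passed limma's test at an adjusted p under 0.05. No gene passed for HS minus TN, and the macrophage, lymphocyte and neutrophil markers that passed were all lower than in LW.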

How the data were processed

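Groups came from the sample labels. For each array the authors deposited the output of Agilent Feature Extraction 10.10.1.1, with spot intensity on a linear scale, not normalized between arrays, and a table of quantile-normalized log2 values for 42051 probes. From the scanner tables, log2 median signals of non-control spots were quantile normalized here, 107 non-uniform spots were set as missing, and a probe was kept if 6 or more of 36 arrays had it well above background. The median signal per array was 70.0 to 92.0 against a background of 18.0 to 25.0, 39644 to 44025 spots were well above background, with no saturated spot. Precision is limited by how many arrays there are. The 36 arrays lay on 5 slides each with as many TN as HS arrays.

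limma 3.58.1 in R 4.3.3 fitted breed and temperature as fixed effects to all kept probes (lmFit and eBayes, two-sided, Benjamini-Hochberg over 44796 probes, threshold 0.05). A model of the 6 groups gave the differences within breeds and the interaction. Pen, slaughter day, father and mother, random effects in the study's model, are missing from the labels and were left out. Names came from the files and the RefSeq gene table of Sscrofa11.1, and 24078 kept probes carried 1 of 11989 symbols. The representative probe of a gene is its brightest on average. All 9 genes are named, the pathway genes past the threshold with at most the 6 smallest p per comparison, and the genes most alike in pattern, of which 1 is not reported here. The members and lists were chosen with earlier results of these data known. The alternatives were the processed signal at the 75th percentile, normexp with an offset of 50, the authors' log2 values, other filters on dim probes, slide as a block, array weights, a trended robust spread, 1 value per gene, and leaving out arrays and slides. The steps were tested on simulated data. Promoter motifs were not searched here.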

Additional observations from a re-analysis of the deposited data

Results flagged for a closer look

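In 6 of 54 groups of 6 animals (9 genes in 6 groups) the highest or lowest animal stood apart from the other 5 by more of the group's range than the 95% limit of Dixon's test, where chance would give 2.7. F1 HS replicate 3 was low at MX1 (gap 0.705 of the range, log2 signal 10.13 against 13.09 for the next) and at MX2 (0.6251, 7.56 against 7.87). The animal was the lowest of its group at all 7 MX1 probes and at 2 of 3 MX2 probes. LW HS replicate 5 was high at IRF7 (0.708, 12.54 against 11.73) and LW TN replicate 6 at RSAD2 (0.651, 9.57 against 8.64). CR HS replicate 2 was high at ISG15 (0.657, 13.57 against 12.44) and CR TN replicate 5 at IFIH1 (0.631, 10.17 against 9.69). For these 4, every probe of the gene had the same animal at that end. LW TN replicate 6, LW HS replicate 5 and CR TN replicate 5 were also above their group mean at all 9 genes.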

How the results depend on the processing

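No paired analysis was possible because the replicate numbers only name the animals and the labels pair none of them across groups. The count of 0 for HS against TN, within each breed and for the interaction stood under every alternative run, and no called difference changed sign. For CR against LW 5 of 26 probes were called, 2 to 7 without single arrays (2 without CR TN replicate 4, 3 without LW TN replicates 2, 4 or 6, CR HS replicate 1 or CR TN replicate 1), 2 of 9 with 1 value per gene, and 3, 8 and 2 without slides 1, 2 and 3. For F1 against LW 5 were called, 3 to 6 without single arrays (3 without F1 HS replicate 3), 2 with 1 value per gene, and 8, 2, 3 and 2 without slides 2, 3, 4 and 5. For F1 against CR 1 was called, ISG12(A), which is described without a test (0 of the other 25), 1 to 2 without single arrays, 2 with array weights, and 0, 0 and 2 without slides 2, 3 and 4. For F1 against the parental mean 2 were called, 2 without any single array, 1 with 1 value per gene, 1, 0 and 0 without slides 2, 3 and 5, and 4 without the 5 animals apart from their breed. Each left-out slide removed 4 or 8 arrays, and 1 value per gene means 9 values instead of 26. For the rest the cause was not tested. Among pathway genes, the 2 calls for F1 against CR became 1 without a filter on dim probes, with slide as a block and with the authors' log2 values, and the 0 against the parental mean became 1 with slide as a block. Of 45 differences of the 9 brightest probes, 7 were called, and 21 of the others changed sign in some setting. The 7 include those of ISG12(A) for CR against LW and for F1 against CR, which are a description and not a test. For CR against LW, ISG12(A) is part of each count given above. It was chosen for that difference, so its place in the counts is no support for it.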
